A study of Homo sapiens and Mus musculus with 36 samples.

Results

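The ATP-binding cassette (ABC) transporters are a family of membrane proteins that use ATP to carry lipids, bile salts, drugs, conjugates, haem precursors and peptides across membranes. Members were chosen by symbol, as the genes of subfamilies ABCA to ABCG together with CFTR, the ABC protein that works as a chloride channel, and the peptide transporters named TAP were not included. This rule used no measured value. It found 47 of the 26457 symbols listed for the human HuH-7 guide libraries, 38 of the 15899 listed for the HuH-7 drug libraries and 51 of the 22673 listed for the mouse libraries. The filter on low counts left 41 members to test in the HuH-7 guide libraries, 35 in the drug libraries, 40 in Hepa1-6, 34 in Hep53.4 and 30 in LLC. Those left out included ABCG5 and ABCG8, the paired exporters of sterols into bile, which had 0 to 0.125 CPM and 0 to 0.142 CPM in all HuH-7 libraries that list them.

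The study sequenced RNA in 36 libraries from cultures of HuH-7, derived from a human liver carcinoma, of Hepa1-6 and Hep53.4, derived from mouse hepatocellular carcinomas, and of LLC, derived from a mouse lung carcinoma (Lewis). In every line the gene of DOT1L, the enzyme that methylates a lysine in the core of histone H3 along transcribed genes, was edited with guide sg1 or guide sg2, which makes 4 DOT1L knockout libraries against 2 libraries of the control guide sgNeg2, labelled wild type. The HuH-7 set exists with interferon (IFN) and without it, and unedited HuH-7 cells received EPZ-5676, which inhibits DOT1L, over 7 days, or the vehicle DMSO, with 3 libraries each. The sources used here state neither the type, dose and time of IFN, nor the time of DMSO, nor whether edited cells were clones. Nothing states that replicates came from separate cultures, so every p-value measures only the spread between libraries, which may be technical.

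In hepatocytes the members divide the work by membrane and cargo. ABCA1 and ABCG1 hand cholesterol and phospholipid to apolipoproteins and lipoprotein particles, and the gene of each is a classic target of the oxysterol receptors LXR. On the canalicular membrane, which faces bile, ABCB11 exports bile salts, ABCB4 phosphatidylcholine, ABCC2 conjugates such as bilirubin glucuronide, and ABCB1 and ABCG2 drugs, while ABCC3 and ABCC4 return conjugates and bile acids to blood. The ABCA5, ABCA6, ABCA8, ABCA9 and ABCA10 genes are close relatives that lie side by side on human chromosome 17 and code for lipid transporters of less certain cargo.

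The start regions of 4 of these neighbours are shown because their genes gave 4 of the family's 7 higher calls in HuH-7 knockout without IFN, described below. Each is the 250 bases before the annotated start on the minus strand, from RefSeq on GRCh38.p14, written 5′ to 3′ in lower case with every CG dinucleotide in capitals. ABCA5 is at chr17:69327134-69327383, ABCA10 at chr17:69244849-69245098, ABCA6 at chr17:69141896-69142145 and ABCA9 at chr17:69060928-69061177.
ABCA5: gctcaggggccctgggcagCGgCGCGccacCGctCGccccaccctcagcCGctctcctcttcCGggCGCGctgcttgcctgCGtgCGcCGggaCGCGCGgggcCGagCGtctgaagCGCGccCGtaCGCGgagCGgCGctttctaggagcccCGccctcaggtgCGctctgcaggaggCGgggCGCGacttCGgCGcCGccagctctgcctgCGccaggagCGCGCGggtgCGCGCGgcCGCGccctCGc
ABCA10: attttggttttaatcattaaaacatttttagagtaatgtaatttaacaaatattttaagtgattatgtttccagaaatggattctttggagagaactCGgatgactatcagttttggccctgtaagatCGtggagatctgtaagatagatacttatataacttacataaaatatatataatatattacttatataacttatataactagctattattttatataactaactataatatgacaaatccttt
ABCA6: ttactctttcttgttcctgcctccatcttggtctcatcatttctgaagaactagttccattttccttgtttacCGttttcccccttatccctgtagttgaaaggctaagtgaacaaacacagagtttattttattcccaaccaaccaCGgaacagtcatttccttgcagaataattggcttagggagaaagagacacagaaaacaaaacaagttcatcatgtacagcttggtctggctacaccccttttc
ABCA9: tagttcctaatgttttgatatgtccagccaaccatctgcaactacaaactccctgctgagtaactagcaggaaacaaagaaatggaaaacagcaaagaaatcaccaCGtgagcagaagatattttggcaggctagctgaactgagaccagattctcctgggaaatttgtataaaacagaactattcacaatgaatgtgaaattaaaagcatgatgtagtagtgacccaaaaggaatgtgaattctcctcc
The ABCA5 window held 42 CG dinucleotides and was 79.2% G or C, whereas the windows of ABCA10, ABCA6 and ABCA9 held 2, 2 and 1 and were 23.6%, 40.8% and 39.2% G or C. Over 35116 RefSeq start windows of the same length the median was 11 CG dinucleotides, with quartiles of 3 and 23. The letters TATAAA, on either strand, stood in the ABCA10 and ABCA9 windows shown and in 10.7% of all windows. GGGCGG and CAGGTG stood in the ABCA5 window and in 42.6% and 17.5% of all windows, and CCAAT in the ABCA6 window and in 32.0%. These are matches of letters, and 36 of the 47 members had a window in the table.

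Depth was lowest in the HuH-7 guide set without IFN, at 19580588 to 22649969 counts per library. The IFN set had 47594968 to 61227426 counts, the drug set 48912627 to 58628528 and the mouse set 42637155 to 59686358. Levels are CPM, a count relative to the library total after TMM scaling. Dot1l or DOT1L transcript was below both control libraries in each edited one, at 32.1 to 40.4 CPM against 73.1 to 75.4 CPM in HuH-7 without IFN, 42.5 to 66.8 CPM against 109 CPM in HuH-7 with IFN, 14.3 to 16.6 CPM against 41.4 to 45.7 CPM in Hepa1-6, 11.5 to 16.4 CPM against 23.0 to 23.7 CPM in Hep53.4, and 28.5 to 32.0 CPM against 57.7 to 64.5 CPM in LLC. With EPZ-5676 it was 47.6 to 51.1 CPM, against 51.8 to 54.5 CPM with DMSO. HuH-7 held 9 of 10 hepatocyte markers at 5 CPM or more and Hepa1-6 7 of 9, whereas Hep53.4 held 2 of 9, with Apoa1, Ttr, Fgb and Tat at 0, and LLC held 0 of 6 lung epithelium markers at that level.

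In HuH-7 cells without IFN, DOT1L knockout went with more transcript of ABCG1 and of ABCA5, ABCA6, ABCA9 and ABCA10, the chromosome 17 neighbours. Of the 41 members tested, 7 were called higher and 0 lower, where edgeR's quasi-likelihood test called 6.95% of all 16448 genes higher and 4.38% lower (11.3% in either direction) at an adjusted p below 0.05. The 7 were ABCG1, ABCA5, ABCA6, ABCA9, ABCA10, ABCC5, an exporter of cyclic nucleotides and haem, and ABCD2, a peroxisomal importer of fatty acids that stayed below 1 CPM in every library. The median log2 change was 0.0869 over the members and 0.00295 over all genes tested. Bulk RNA cannot tell fewer cells of a type apart from less RNA per cell.

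ABCA5, a lysosomal member linked to cholesterol handling, had 46.4 and 48.0 CPM with sg1 and 50.1 and 57.0 CPM with sg2, against 30.3 and 25.8 CPM in sgNeg2 libraries. Every knockout library was above both sgNeg2 libraries, and the log2 change was 0.84 ± 0.23 (SE; adjusted p = 0.0298). ABCA6 had 9.06 and 9.17 CPM with sg1 and 11.1 and 11.6 CPM with sg2, against 1.16 and 2.34 CPM in sgNeg2 libraries, a log2 change of 2.54 ± 0.45 (SE; adjusted p = 0.00272). ABCA10 had 7.83 and 8.09 CPM with sg1 and 7.29 and 8.65 CPM with sg2, against 1.98 and 1.66 CPM in sgNeg2 libraries, a log2 change of 2.13 ± 0.27 (SE; adjusted p = 0.000182). Both genes stood at a few CPM or less in control cells and were several times higher in all 4 knockout libraries, with no overlap. ABCA9 had 1.89 and 1.79 CPM with sg1 and 1.73 and 2.09 CPM with sg2, against 0.388 and 0.468 CPM in sgNeg2 libraries, a log2 change of 2.12 ± 0.42 (SE; adjusted p = 0.00538). ABCA8, at the far end of the cluster, had 0.779 and 0.542 CPM with sg1 and 0.729 and 0.884 CPM with sg2, against 0.301 and 0.170 CPM in sgNeg2 libraries; its groups did not overlap, but the change of 1.62 ± 0.59 (SE; adjusted p = 0.1) did not pass the threshold. ABCA5 was not called once any 1 of the 6 libraries without IFN was left out (log2 change 0.69 to 0.96, adjusted p = 0.057 to 0.285 by edgeR). Without sgNeg2 replicate 1 the count fell to 3, with ABCA6 (adjusted p = 0.0686) and ABCA9 (adjusted p = 0.0937) not called, and without sgNeg2 replicate 2 it was also 3, with ABCA9 (adjusted p = 0.0662) and ABCC5 (adjusted p = 0.203) not called, whereas ABCG1 and ABCA10 were called whichever of the 12 libraries was left out.

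**Figure D1:**
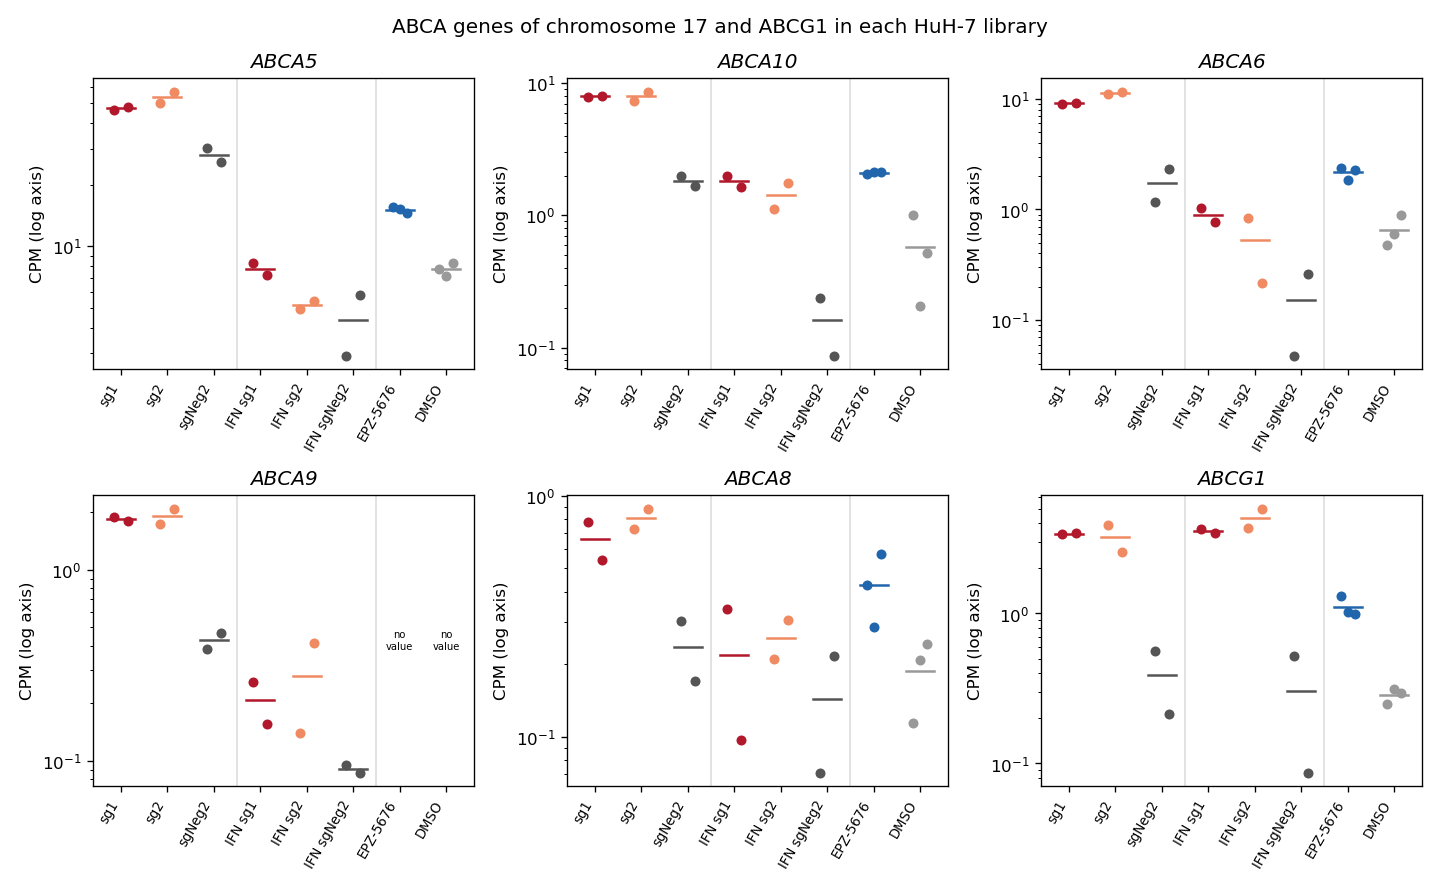
Levels of ABCG1 and of the 5 chromosome 17 ABCA genes in each HuH-7 library (CPM, log axis), 1 point per library, with the knockout or EPZ-5676 libraries left of their sgNeg2 or DMSO libraries and a bar at each group's mean. The ABCA10 knockout libraries without IFN sit between 7.29 and 8.65 CPM and the sgNeg2 libraries at 1.66 and 1.98 CPM.

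The 5 genes lie on the minus strand of chromosome 17 within 460.0 kb of GRCh38 (GENCODE v29). ABCA8 spans 68867292 to 68955392, ABCA9 68974488 to 69061064, ABCA6 69078702 to 69141888, ABCA10 69147214 to 69244846 and ABCA5 69244311 to 69327244. Exons of ABCA10 and ABCA5 overlap on the same strand, so part of their reads may be counted for either gene. Of the flanking genes, PRKAR1A, a regulatory subunit of protein kinase A, had log2 changes of 0.03 in knockout without IFN, -0.05 in knockout with IFN and 0.05 with EPZ-5676, and KCNJ16, a potassium channel, had 1.35 (adjusted p = 0.0168), 1.83 (adjusted p = 0.0208) and 0.23 (adjusted p = 0.619) in the same order by edgeR's test. Values of the flanking FAM20A were -0.47 (adjusted p = 0.016), -0.57 (adjusted p = 0.00317) and 0.37 (adjusted p = 0.000817) by the same test. Those of MAP2K6 were -0.13 (adjusted p = 0.412), -0.63 (adjusted p = 0.000358) and -0.20 (adjusted p = 4.96e-05). The small change of PRKAR1A with EPZ-5676 was called too (adjusted p = 0.00383 by edgeR), so flanking genes also changed.

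**Figure D2:**
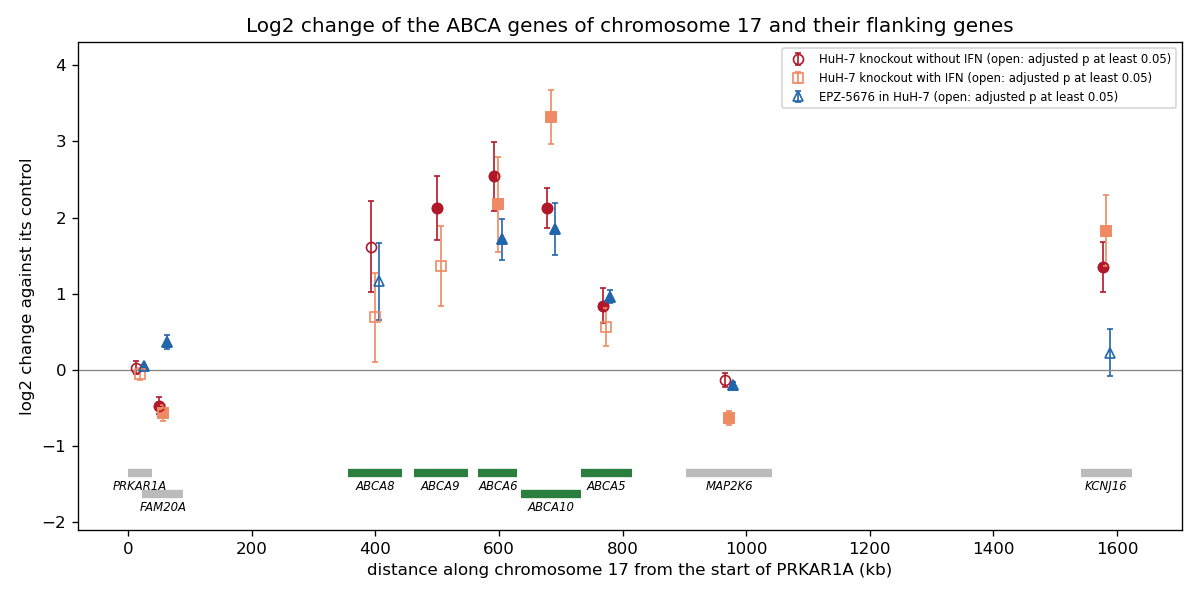
Log2 change of each gene of the chromosome 17 ABCA cluster and its flanks in HuH-7, against its distance in kb from the start of PRKAR1A, for knockout without IFN, knockout with IFN and EPZ-5676; bars are standard errors and open symbols were not called. ABCA5, ABCA6 and ABCA10 lie above 0 in all 3 comparisons, while PRKAR1A stays between -0.05 and 0.05.

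ABCG1, which passes cholesterol to lipoprotein particles and lies on chromosome 21 from 42199689 to 42297244 on the plus strand, had the largest change of the called members that reached 1 CPM. It had 3.40 and 3.42 CPM with sg1 and 3.92 and 2.56 CPM with sg2, against 0.560 and 0.213 CPM in sgNeg2 libraries, a log2 change of 3.10 ± 0.50 (SE; adjusted p = 0.00134). The sgNeg2 values rest on 13 and 5 counts, against 83, 82, 86 and 55 counts in the knockout libraries. ABCA1, its partner in sterol export, had 186 and 174 CPM with sg1 and 198 and 194 CPM with sg2, against 176 and 178 CPM in sgNeg2 libraries; the change of 0.09 ± 0.08 (SE; adjusted p = 0.556) was not called. Outside the family, 0 of 8 LXR target genes tested, among them MYLIP and SREBF1, were called in either direction.

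Among the nuclear receptors and regulators of sterol and bile genes, 1 of 16 was higher and 4 were lower. NR1I2, the pregnane X receptor that senses drugs and bile acids, averaged 4.87 CPM in knockout and 1.29 CPM in sgNeg2 libraries (log2 change 1.92 ± 0.34, adjusted p = 0.00254 by edgeR). The lower ones were PPARA (-0.52), SREBF2 (-0.44), NR1H4, the bile acid receptor FXR (-0.36), and HNF4A (-0.25). Of 11 tested genes of bile acid transport and synthesis outside the family 1 was lower, SLC9A3R1, and of 12 genes of cell sterol traffic 1 was lower, APOA1, which takes up the cholesterol that ABCA1 exports (-0.60).

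The canalicular exporters gave no call: 0 of 5 tested members of that list passed in either direction. ABCB1 had 107 and 109 CPM with sg1 and 119.6 and 134 CPM with sg2, against 139.9 and 134 CPM in sgNeg2 libraries, so that its groups touched at sg2. ABCB4 had 21.0 and 23.6 CPM with sg1 and 24.1 and 29.1 CPM with sg2, against 24.9 and 28.4 CPM in sgNeg2 libraries, with overlapping groups. ABCC2 had 69.3 and 68.5 CPM with sg1 and 76.6 and 74.0 CPM with sg2, against 62.3 and 61.8 CPM in sgNeg2 libraries, with every knockout library above both controls, and ABCG2 had 28.5 and 29.8 CPM with sg1 and 34.8 and 34.6 CPM with sg2, against 26.5 and 26.7 CPM in sgNeg2 libraries. Their log2 changes were -0.22 ± 0.10, adjusted p = 0.187 for ABCB1, 0.22 ± 0.11, adjusted p = 0.252 for ABCC2 and 0.26 ± 0.15, adjusted p = 0.285 for ABCG2. ABCB11, the bile salt pump, was low in HuH-7, at 0.0930 to 0.369 CPM without IFN. Of 10 drug and conjugate exporters tested, ABCC5 alone was called. It had 36.3 and 37.3 CPM with sg1 and 36.6 and 35.4 CPM with sg2, against 28.98 and 26.9 CPM in sgNeg2 libraries, a log2 change of 0.38 ± 0.08 (SE; adjusted p = 0.00575) with no overlap. ABCC4, the exporter of bile acids and cyclic nucleotides at the blood side, had 76.8 and 69.9 CPM with sg1 and 75.9 and 80.9 CPM with sg2, against 94.3 and 89.4 CPM in sgNeg2 libraries; all knockout libraries were below the controls, but the pooled change of -0.28 ± 0.09 (SE; adjusted p = 0.069) was not called.

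**Figure D3:**
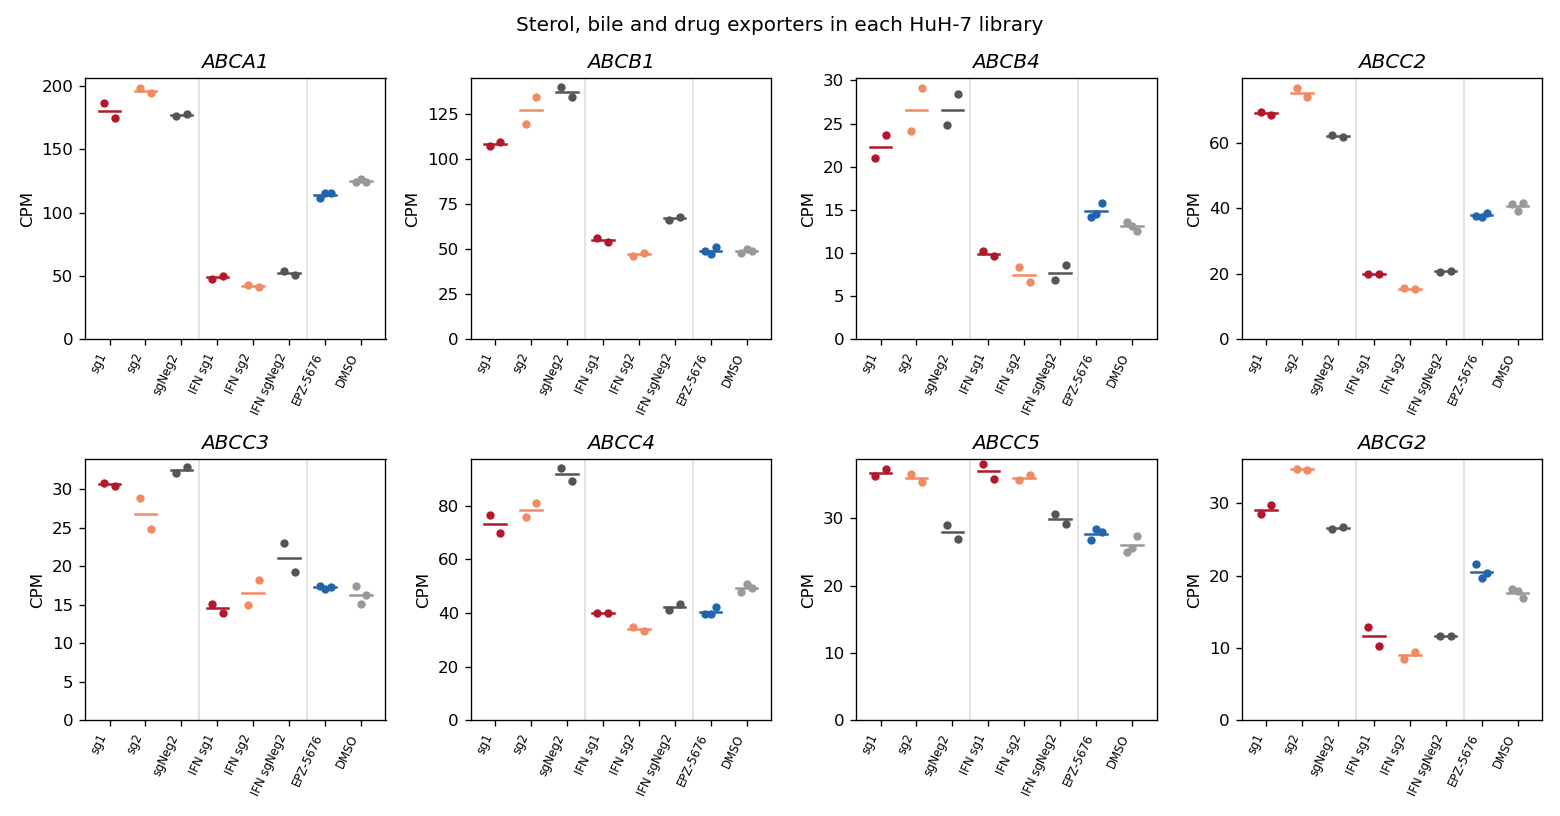
Levels of sterol, bile and drug exporters in each HuH-7 library (CPM, linear axis), 1 point per library and a bar at each group's mean. Among the guide libraries, ABCA1 lies at 174 CPM or more without IFN and at 53.8 CPM or less with IFN.

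The guides were also fitted as separate groups, each against the same 2 sgNeg2 libraries, so their values are not independent. For sg1 and sg2 the log2 changes without IFN were 3.13 and 3.06 for ABCG1, 2.13 and 2.13 for ABCA10, 2.38 and 2.69 for ABCA6, 2.09 and 2.15 for ABCA9, and 0.75 and 0.93 for ABCA5. These 5 genes moved by similar amounts with either guide. ABCC4 was called lower with each guide alone, at -0.32 (adjusted p = 0.00413) for sg1 and -0.23 (adjusted p = 0.0255) for sg2 by edgeR's test. ABCB1 was called lower with sg1 alone (-0.34, adjusted p = 0.00163), and ABCC2 and ABCG2 were called higher with sg2 alone (0.28, adjusted p = 0.00581, and 0.38, adjusted p = 0.0185); the difference between guides was not tested. The sg2 libraries without IFN differed more from each other than those of sg1 or sgNeg2. Their median chi-square value per gene was 8.21 times that of counting noise, against 1.78 for sg1 and 2.02 for sgNeg2.

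In unedited HuH-7 cells given EPZ-5676, ABCG1, ABCA5, ABCA6 and ABCA10 were higher than with DMSO. Of 35 members tested, 6 were called higher and 6 lower, where 15.1% of all 15023 genes were higher and 18.6% lower (33.7% in either direction), so the family's total was close to the background. The members' median log2 change was 0.0844, against 0.00912 over all genes. ABCA5 had 15.6, 15.2 and 14.5 CPM with EPZ-5676, against 7.78, 7.19 and 8.25 CPM with DMSO, a log2 change of 0.96 ± 0.09 (SE; adjusted p = 2.57e-15). ABCA6 had 2.38, 1.83 and 2.29 CPM with EPZ-5676, against 0.476, 0.602 and 0.884 CPM with DMSO, a log2 change of 1.72 ± 0.27 (SE; adjusted p = 1.86e-07). Every treated library was above every DMSO library for each of these lipid transporters. ABCA10 had 2.07, 2.14 and 2.12 CPM with EPZ-5676, against 1.01, 0.208 and 0.520 CPM with DMSO, a log2 change of 1.85 ± 0.34 (SE; adjusted p = 0.000108). ABCG1 had 1.31, 1.03 and 0.996 CPM with EPZ-5676, against 0.248, 0.311 and 0.295 CPM with DMSO, a log2 change of 1.96 ± 0.37 (SE; adjusted p = 1.24e-05). Neither gene's groups overlapped, and the DMSO levels of ABCG1 rest on 13, 15 and 17 counts. ABCA8 had 0.425, 0.286 and 0.572 CPM with EPZ-5676, against 0.114, 0.208 and 0.243 CPM with DMSO, a change of 1.16 ± 0.51 (SE; adjusted p = 0.0689), and ABCA9 is not listed in these files.

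Knockout without IFN and EPZ-5676 do not share controls. Among members tested in both, 4 of the 5 higher in knockout were among the 6 higher with EPZ-5676, namely ABCA5, ABCA6, ABCA10 and ABCG1. Over all genes tested in both, 705 genes were higher in both, 66.8% of the 1056 in knockout and 31.1% of the 2270 with EPZ-5676. The other members called with EPZ-5676 had smaller changes. ABCG2, the urate and drug exporter, had 21.6, 19.7 and 20.4 CPM with EPZ-5676, against 18.2, 17.8 and 16.9 CPM with DMSO, a log2 change of 0.22 ± 0.07 (SE; adjusted p = 0.00568). ABCC10, a broad drug exporter, had 9.94, 10.2 and 11.97 CPM with EPZ-5676, against 8.79, 8.91 and 9.45 CPM with DMSO, a log2 change of 0.24 ± 0.09 (SE; adjusted p = 0.0375). It was no longer called without DMSO replicate 1, DMSO replicate 2 or EPZ-5676 replicate 3, nor by DESeq2. ABCC4 had 39.8, 39.7 and 42.3 CPM with EPZ-5676, against 47.8, 50.8 and 49.5 CPM with DMSO, a log2 change of -0.28 ± 0.04 (SE; adjusted p = 1.98e-07). ABCC6, the liver transporter that raises blood pyrophosphate, had 7.05, 9.68 and 8.96 CPM with EPZ-5676, against 10.8, 13.3 and 10.1 CPM with DMSO, a log2 change of -0.41 ± 0.11 (SE; adjusted p = 0.00306). ABCC6 has near-identical pseudogene copies, so its counts are uncertain. ABCA1 had 112, 116 and 115 CPM with EPZ-5676, against 124, 126 and 124 CPM with DMSO, a small fall of -0.13 ± 0.03 (SE; adjusted p = 3.22e-05) with no overlap. ABCA2, ABCB6 and ABCD3 were called lower, with log2 changes of -0.18, -0.16 and -0.08. Outside the family, 1 of 8 LXR targets was higher with EPZ-5676 and 3 were lower, and of 16 receptors and regulators 1 was higher and 6 lower.

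**Figure D4:**
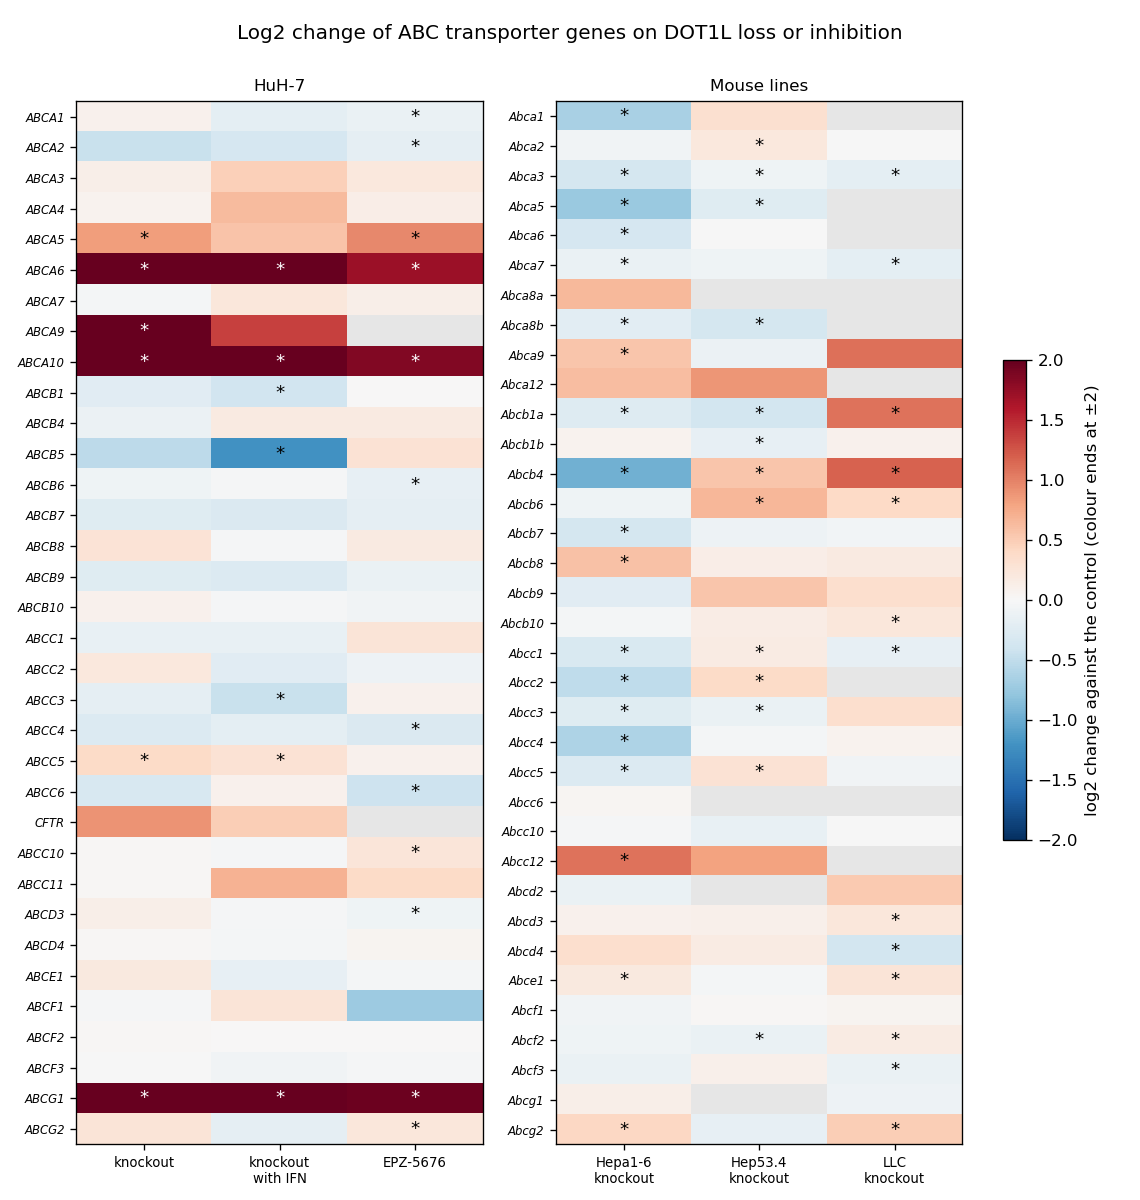
Log2 change of members on DOT1L knockout or EPZ-5676 in HuH-7 (left) and on knockout in the mouse lines (right), with red higher and blue lower than the control; stars mark calls at an adjusted p below 0.05 and grey marks members that were not tested. ABCA6, ABCA10 and ABCG1 carry stars in all 3 HuH-7 columns.

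Transcripts that mark other cell types moved along with these changes in HuH-7. The summed leukocyte markers were 168 to 203 CPM in knockout and 98 to 102 CPM in sgNeg2 libraries, with PTPRC at 0 and 2 of 4 tested markers called higher, and 247 to 253 CPM with EPZ-5676 against 154 to 159 CPM with DMSO. The summed fibroblast markers were 10.8 to 15.3 CPM in knockout against 3.06 to 6.51 CPM in sgNeg2 libraries, with 2 of 4 tested called higher, and 4.83 to 6.06 CPM with EPZ-5676 against 1.91 to 2.96 CPM with DMSO. The summed hepatocyte markers were 13300 to 15400 CPM in knockout and 16400 CPM in sgNeg2 libraries, with 2 of 10 called higher and 6 lower, and 15400 to 15500 CPM with EPZ-5676 against 17300 to 17500 CPM with DMSO. The part of these marker shifts in the results was not tested.

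With IFN, ABCG1, ABCA10, ABCA6 and ABCC5 were higher in knockout than in control HuH-7 cells, and ABCB1, ABCC3 and ABCB5 were lower. Of 41 members tested, 4 were called higher and 3 lower, where 7.11% of all genes were higher and 5.27% lower (12.4% in either direction). The count of 7 fell to 2 without IFN sgNeg2 replicate 1, to 3 without sg1 replicate 2 of the set without IFN, and to 4 without IFN sgNeg2 replicate 2, IFN sg2 replicate 1, or sgNeg2 replicate 2 or sg1 replicate 1 of the set without IFN. ABCG1 had 3.66 and 3.44 CPM with sg1 and 3.70 and 5.00 CPM with sg2, against 0.520 and 0.0864 CPM in sgNeg2 libraries, a log2 change of 3.72 ± 0.46 (SE; adjusted p = 0.000135). ABCA10 had 2.00 and 1.63 CPM with sg1 and 1.12 and 1.75 CPM with sg2, against 0.236 and 0.0864 CPM in sgNeg2 libraries, a log2 change of 3.32 ± 0.35 (SE; adjusted p = 3.96e-05). All knockout libraries were above both controls for these lipid transporters. ABCA6 was also called, at 1.02 and 0.777 CPM with sg1 and 0.841 and 0.218 CPM with sg2, against 0.0473 and 0.259 CPM in sgNeg2 libraries, although its lowest knockout library was below the higher control (log2 change 2.17 ± 0.63, adjusted p = 0.0372). ABCC5 had 38.1 and 35.9 CPM with sg1 and 35.6 and 36.5 CPM with sg2, against 30.6 and 29.2 CPM in sgNeg2 libraries, a log2 change of 0.29 ± 0.07 (SE; adjusted p = 0.0214).

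ABCB1, the P-glycoprotein, had 56.2 and 54.2 CPM with sg1 and 46.1 and 48.1 CPM with sg2, against 66.0 and 68.0 CPM in sgNeg2 libraries, a log2 change of -0.39 ± 0.10 (SE; adjusted p = 0.022). ABCC3 had 15.1 and 13.9 CPM with sg1 and 14.9 and 18.2 CPM with sg2, against 23.0 and 19.2 CPM in sgNeg2 libraries, a log2 change of -0.44 ± 0.12 (SE; adjusted p = 0.0288). In both genes every knockout library was below both sgNeg2 libraries, and each lost its call without 1 or another of 6 of the 12 libraries (log2 -0.43 to -0.34 for ABCB1 and -0.57 to -0.31 for ABCC3). ABCB5, a drug transporter known from melanoma, stayed below 1 CPM. Fitted on the 6 IFN libraries alone, edgeR's test called 2 of 38 members, ABCG1 and ABCA10, where 5.35% of all genes were higher and 1.22% lower (6.57% in either direction), whereas ABCB1 (adjusted p = 0.144), ABCC3 (adjusted p = 0.159), ABCC5 (adjusted p = 0.0666), ABCA6 (adjusted p = 0.157) and ABCB5 (adjusted p = 0.204) were no longer called. ABCA5 had 8.29 and 7.21 CPM with sg1 and 4.92 and 5.42 CPM with sg2, against 2.91 and 5.77 CPM in sgNeg2 libraries, and was not called (log2 change 0.57 ± 0.25, adjusted p = 0.172), nor was ABCA9 (1.37 ± 0.52, adjusted p = 0.116). The summed fibroblast markers were 10.0 to 13.5 CPM in knockout and 1.54 to 1.88 CPM in sgNeg2 libraries with IFN, where COL1A2, COL3A1 and DCN were at 0, and the leukocyte markers 382 to 418 CPM and 244 to 251 CPM; their part in these values was not tested.

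Whether the knockout changes differed between cells with and without IFN was tested as an interaction, which called 0.505% of all genes. The sets with and without IFN also differ in depth and in kind of library, as given below. An interaction with IFN therefore cannot be told apart from one with the kind of library. It called 0 members by edgeR and 0 by DESeq2. At an unadjusted p below 0.05, edgeR's test gave 3 members: ABCA10 (1.20, adjusted p = 0.268), ABCC2 (-0.44, adjusted p = 0.251) and ABCA1 (-0.29, adjusted p = 0.324). The share of all genes at that unadjusted threshold is not given here. These 3 are therefore not read as differing with IFN. The sg2 libraries without IFN differed more from each other than those of sg1 or sgNeg2, as given above. With guide sg2 alone, the interaction called 9.5% of all genes upward and 15.9% downward (25.4% in either direction). For 6 of 41 members, a share near that background, edgeR's test then called the knockout change lower with IFN: ABCG2 (-0.77, adjusted p = 0.00338), ABCC2 (-0.70, adjusted p = 0.000375), ABCE1 (-0.63, adjusted p = 0.000531), ABCA1 (-0.46, adjusted p = 0.00141), ABCD3 (-0.44, adjusted p = 0.00614) and ABCB1 (-0.40, adjusted p = 0.00596). With sg1 alone it called 1, ABCB8 (-0.73, adjusted p = 0.0181), where 1.4% of all genes were called upward and 2.49% downward (3.9% in either direction).

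Control HuH-7 cells with IFN had less transcript than those without of ABCA1, of 4 of 5 canalicular exporters tested and of 5 of 10 ABCA lipid transporters outside the sterol list, but the sets also differ in kind of library. Small nuclear RNA genes took 0.0089 to 0.0107% of counts with IFN and 1.88 to 3.42% without, and depth differed as given above, so IFN and the kind of library cannot be told apart. Summed hepatocyte markers were 9490 to 9600 CPM with IFN and 16400 CPM without, and their part in these values was not tested. Of 41 members, 8 were called higher and 14 lower, where 33.0% of all genes were higher and 34.7% lower (67.8% in either direction). The family's share of lower calls, 34.1%, was near that background. ABCA1 had 53.8 and 51.0 CPM with IFN, against 176 and 178 CPM without IFN, a log2 change of -1.76 ± 0.10 (SE; adjusted p = 8.36e-09). ABCA5 had 2.91 and 5.77 CPM with IFN, against 30.3 and 25.8 CPM without IFN, a log2 change of -2.69 ± 0.28 (SE; adjusted p = 2.23e-06). Both were well apart, without overlap. ABCA6 (-3.45) and ABCA10 (-3.49) were lower too, at 0.0473 to 0.259 CPM and 0.0864 to 0.236 CPM with IFN. ABCB4 had 6.86 and 8.64 CPM with IFN, against 24.9 and 28.4 CPM without IFN, a log2 change of -1.78 ± 0.20 (SE; adjusted p = 4.76e-06), and ABCC2 had 20.6 and 20.9 CPM with IFN, against 62.3 and 61.8 CPM without IFN, a log2 change of -1.58 ± 0.13 (SE; adjusted p = 3.08e-07). ABCB5 (-2.52) and the retinal transporter ABCA4 (-2.39) were lower as well. ABCB11, the bile salt pump, went the other way at low levels, with 0.331 and 0.993 CPM with IFN, against 0.215 and 0.170 CPM without IFN, a log2 change of 1.77 ± 0.64 (SE; adjusted p = 0.0249), and among the 4 sterol exporters tested ABCA1 alone was called.

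Members of the mitochondrion and the cytosol were among those higher with IFN. Of 6 mitochondrial and lysosomal ABCB members tested, 2 were called higher and 1 lower, against the shares of all genes given above. Of these, ABCB8, a transporter of the mitochondrial inner membrane, had 33.2 and 36.5 CPM with IFN, against 10.6 and 10.4 CPM without IFN, a log2 change of 1.73 ± 0.21 (SE; adjusted p = 9.45e-06). ABCF2, a soluble member, had 163 and 156 CPM with IFN, against 49.7 and 50.8 CPM without IFN, a log2 change of 1.67 ± 0.08 (SE; adjusted p = 1.77e-09). Both were several times higher without overlap, and of the 4 soluble ABCE and ABCF members 3 were called higher. ABCF1 lies in the major histocompatibility region of chromosome 6, where 128 genes had a median of 0.0891 CPM, against 13.5 CPM for 859 genes elsewhere on the chromosome in sgNeg2 libraries, so its level is uncertain.

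The DMSO libraries, with fewer small nuclear RNA counts, gave another control for IFN, though they differ in guide and vehicle and were scaled with the IFN libraries for this purpose. Against them, 12 of 35 members were higher and 12 lower, where 35.6% of all genes were higher and 34.7% lower (70.4% in either direction), and ABCA1 (-1.32), ABCC2 (-1.04), ABCB4 (-0.83), ABCG2 (-0.66), ABCA5 (-0.90), ABCA6 (-2.12) and ABCA10 (-1.92) stayed lower. ABCB8 (1.09), ABCF2 (0.99), ABCF3 (0.80) and ABCB6 (0.89) stayed higher. The soluble members ABCE1 (0.05, adjusted p = 0.0503) and ABCF1 (0.14, adjusted p = 0.846) were not called against DMSO by edgeR's test. ABCB1 turned to 0.38 (adjusted p = 2.24e-08), ABCC3 to 0.30 (adjusted p = 0.00361) and ABCB5 to 0.13 (adjusted p = 0.802) by edgeR's test, so their direction under IFN depends on the control. ABCA4 was no longer called (-0.69, adjusted p = 0.299 by edgeR). In knockout cells, where 36.4% of all genes were called higher and 42.2% lower with IFN (78.6% in either direction), 12 members were higher and 16 lower. ABCA6 (-3.82), ABCB5 (-3.20), ABCA5 (-2.96), ABCA9 (-2.95), CFTR (-2.59), ABCA10 (-2.29), ABCA1 (-2.04) and ABCC2 (-2.02) changed most.

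Per kilobase of exon, the members rank differently from their CPM. In sgNeg2 HuH-7 cells ABCE1, the ribosome-recycling factor, led with 25.7 CPM per kb, before ABCB1 (23.6), the peroxisomal ABCD3 (20.9), ABCA1 (15.6), ABCF2 (12.03), ABCC4 (10.6), ABCC2 (7.92) and ABCB6 (7.90). In DMSO cells ABCE1 (40.7), ABCD3 (31.5), ABCF2 (18.3), the mitochondrial ABCB10 (12.4) and ABCA1 (11) led.

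In the mouse line Hepa1-6 many exporters of sterol, bile and drugs were lower after Dot1l knockout. They were 2 of 3 sterol exporters tested, 3 of 5 canalicular exporters (1 was higher) and 6 of 11 drug exporters (2 were higher). The canalicular and drug lists share members, so their calls are not separate tallies. Of 40 members tested, 5 were called higher and 15 lower, where 14.5% of all 12493 genes were higher and 18.3% lower (32.8% in either direction). The members' median log2 change was -0.0812, against 0.0117 over all genes. Hepatocyte markers were lower as well, 7 of 8 tested, with sums of 12300 to 12700 CPM in knockout and 17400 to 17600 CPM in sgNeg2 libraries, and their part in these values was not tested. Abca1 had 62.2 and 62.9 CPM with sg1 and 66.8 and 68.7 CPM with sg2, against 103 and 104 CPM in sgNeg2 libraries, a log2 change of -0.65 ± 0.05 (SE; adjusted p = 4.39e-10). Abca5 had 161 and 164 CPM with sg1 and 162 and 162 CPM with sg2, against 268 and 282 CPM in sgNeg2 libraries, a log2 change of -0.75 ± 0.04 (SE; adjusted p = 8.32e-13). In both genes every edited library was below both controls, the opposite direction to human ABCA5 in HuH-7 knockout. Abcb4 had 2.55 and 3.13 CPM with sg1 and 1.27 and 1.86 CPM with sg2, against 4.06 and 4.59 CPM in sgNeg2 libraries, a log2 change of -0.96 ± 0.25 (SE; adjusted p = 0.00665). Abcc2 had 408 and 404 CPM with sg1 and 408 and 415 CPM with sg2, against 594 and 580.3 CPM in sgNeg2 libraries, a log2 change of -0.51 ± 0.03 (SE; adjusted p = 5.7e-11). Abcc4 had 208 and 207 CPM with sg1 and 209 and 206 CPM with sg2, against 324 and 315 CPM in sgNeg2 libraries, a log2 change of -0.61 ± 0.03 (SE; adjusted p = 9.29e-12). None of these 3 groups overlapped, and the conjugate exporters Abcc1, Abcc3 and Abcc5 were lower by 0.25 to 0.31 on the log2 scale.

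The members called higher in Hepa1-6 were Abcc12, Abcb8, Abca9, Abce1 and Abcg2, the last with overlapping groups. Abcb8 had 13.7 and 13.7 CPM with sg1 and 13.6 and 14.9 CPM with sg2, against 8.77 and 10.1 CPM in sgNeg2 libraries, a log2 change of 0.59 ± 0.10 (SE; adjusted p = 0.000124), and Abca9 had 7.36 and 6.43 CPM with sg1 and 6.27 and 5.63 CPM with sg2, against 4.56 and 4.27 CPM in sgNeg2 libraries, a log2 change of 0.55 ± 0.15 (SE; adjusted p = 0.00638). Abcc12 had 1.65 and 1.60 CPM with sg1 and 1.83 and 2.09 CPM with sg2, against 1.06 and 0.616 CPM in sgNeg2 libraries, a log2 change of 1.09 ± 0.31 (SE; adjusted p = 0.00855). Without sgNeg2 replicate 2, Abcc12 (adjusted p = 0.121), Abcb4 (adjusted p = 0.0732) and Abca9 (adjusted p = 0.0654) were not called by edgeR's test. Abcg1 had 37.1 and 40.4 CPM with sg1 and 39.4 and 38.6 CPM with sg2, against 35.6 and 37.0 CPM in sgNeg2 libraries, and was not called, unlike its human counterpart in HuH-7; the difference between species was not tested. Outside the family 5 of 6 LXR targets tested were lower, among them Mylip (-0.48), Apoe (-0.29) and Srebf1 (-0.24). Of 16 nuclear receptors and regulators 1 was higher and 8 lower, among them Nr5a2 (-0.56), Hnf4a (-0.53) and Rxra (-0.38). Srebf1 is counted in both lists.

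**Figure D5:**
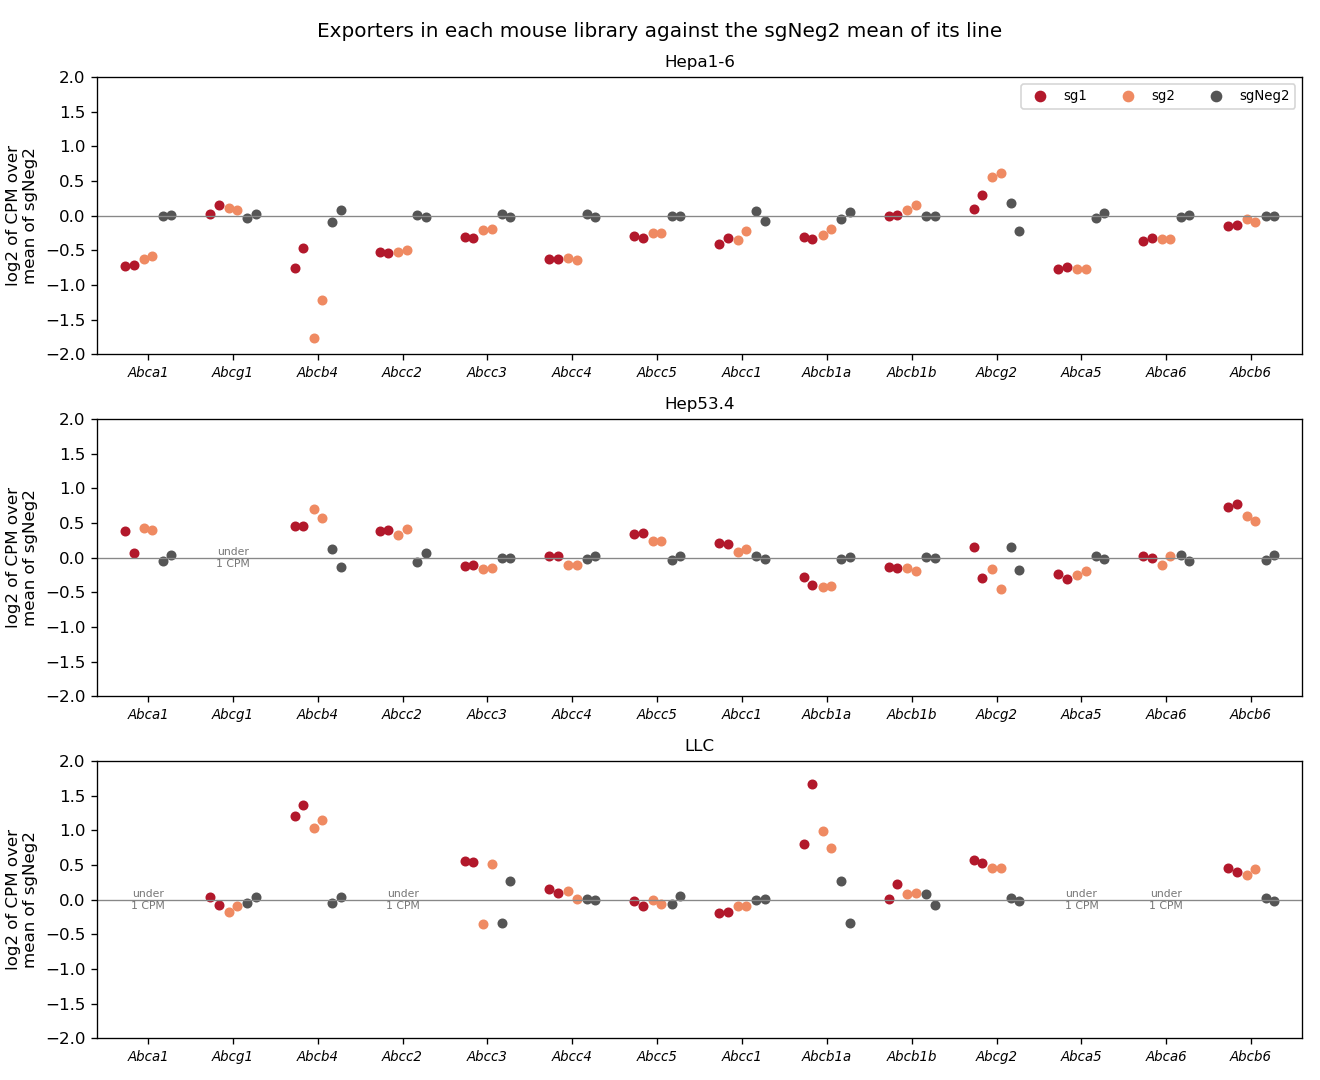
Log2 of each mouse library's CPM over the mean of its line's sgNeg2 libraries, for exporter genes in Hepa1-6, Hep53.4 and LLC, 1 point per library; a line at 0 marks the sgNeg2 mean, and genes under 1 CPM in a line have no points. Abcb4 and Abcc2 lie below 0 in the Hepa1-6 knockout libraries and above 0 in those of Hep53.4.

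In Hep53.4, Abcb6, Abcb4, Abcc2 and Abcc5 were higher and Abcb1a and Abca5 lower after knockout. Of 34 members tested, 7 were called in each direction, among them 2 higher and 2 lower of 5 canalicular exporters, where 19.4% of all 12227 genes were higher and 19.7% lower (39.2% in either direction). The members' median log2 change was 0.102, against -0.00267 over all genes. Abcb6, a porphyrin transporter, had 39.4 and 40.5 CPM with sg1 and 36.0 and 34.2 CPM with sg2, against 23.1 and 24.3 CPM in sgNeg2 libraries, a log2 change of 0.66 ± 0.07 (SE; adjusted p = 2.06e-09). Abcb4 had 13.8 and 13.9 CPM with sg1 and 16.4 and 14.98 CPM with sg2, against 10.96 and 9.18 CPM in sgNeg2 libraries, a log2 change of 0.55 ± 0.10 (SE; adjusted p = 3.02e-05). Both were higher in every edited library. Abcc2 had 15.6 and 15.8 CPM with sg1 and 15.1 and 16.0 CPM with sg2, against 11.4 and 12.5 CPM in sgNeg2 libraries, a log2 change of 0.38 ± 0.08 (SE; adjusted p = 0.000489). Abcc5 had 710.1 and 714 CPM with sg1 and 659 and 657 CPM with sg2, against 547 and 568.5 CPM in sgNeg2 libraries, a log2 change of 0.30 ± 0.03 (SE; adjusted p = 7.44e-09).

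Abcb1a, one of the pair of mouse P-glycoprotein genes, was lower in Hep53.4, at 15.4 and 14.1 CPM with sg1 and 13.9 and 14.0 CPM with sg2, against 18.4 and 18.8 CPM in sgNeg2 libraries (log2 change -0.37 ± 0.08, adjusted p = 0.000314). Abca5 had 135 and 129 CPM with sg1 and 134 and 139 CPM with sg2, against 162 and 157 CPM in sgNeg2 libraries, a log2 change of -0.25 ± 0.03 (SE; adjusted p = 6.54e-07), and Abca8b had 12.6 and 12.1 CPM with sg1 and 14.2 and 14.8 CPM with sg2, against 16.5 and 17.5 CPM in sgNeg2 libraries, a log2 change of -0.34 ± 0.09 (SE; adjusted p = 0.00208). Without sgNeg2 replicate 2, Abca8b was not called (-0.30, adjusted p = 0.0587 by edgeR). Abcb1a and Abcb1b, and Abca8a and Abca8b, are pairs of closely related genes, so some counts could be split between them. Of 6 LXR targets tested 5 were higher, among them Fasn (0.28), and 0 lower. Of 12 regulators tested 4 were higher and 2 lower, and Srebf1 (0.17) is counted in both lists.

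In LLC, Abcb6, Abcg2 and Abcb4 were higher and Abcd4 and Abcc1 lower after knockout, while Abca1, Abca5, Abca6 and Abcc2 were not tested for lack of counts. Of 30 members tested, 9 were called higher and 6 lower, where 16.0% of all 12225 genes were higher and 17.5% lower (33.5% in either direction). The members' median log2 change was 0.120, against 0.00832 over all genes. Abcb6 had 60.1 and 57.7 CPM with sg1 and 56.3 and 59.6 CPM with sg2, against 44.5 and 43.3 CPM in sgNeg2 libraries, a log2 change of 0.39 ± 0.05 (SE; adjusted p = 3.27e-06). Abcg2 had 8.47 and 8.23 CPM with sg1 and 7.80 and 7.80 CPM with sg2, against 5.77 and 5.60 CPM in sgNeg2 libraries, a log2 change of 0.49 ± 0.11 (SE; adjusted p = 0.00131). Both were higher in all 4 edited libraries. Abcd4, which works with lysosomal cobalamin, had 24.7 and 26.8 CPM with sg1 and 29.4 and 29.5 CPM with sg2, against 36.0 and 34.2 CPM in sgNeg2 libraries, a log2 change of -0.37 ± 0.07 (SE; adjusted p = 0.000276). Abcb4 had 1.24 and 1.39 CPM with sg1 and 1.10 and 1.20 CPM with sg2, against 0.522 and 0.553 CPM in sgNeg2 libraries, a log2 change of 1.17 ± 0.30 (SE; adjusted p = 0.00462) at very low levels. Abcb1a had 1.296 and 2.36 CPM with sg1 and 1.48 and 1.24 CPM with sg2, against 0.896 and 0.587 CPM in sgNeg2 libraries, a log2 change of 1.09 ± 0.31 (SE; adjusted p = 0.0104), which was not called without sgNeg2 replicate 2 (0.80, adjusted p = 0.144 by edgeR). Abce1 (0.26), Abcb10 (0.22) and Abcd3 (0.22) were higher by less, and Abcb10 was not called without sgNeg2 replicate 2 either (0.16, adjusted p = 0.194 by edgeR). Of 4 canalicular exporters tested 3 were higher and 0 lower, and of 7 LXR targets 0 were higher and 2 lower, among them Scd1 (-0.53). The summed fibroblast markers were 1340 to 1370 CPM in knockout and 938 to 961 CPM in sgNeg2 libraries of LLC, with 4 of 6 called higher, and their part in these values was not tested.

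Of 26 members tested in every mouse line, 5 were called in all 3, among them Abca3, Abcb1a, Abcb4 and Abcc1, where 7.75% of all 10564 genes tested in every line were. Abca3, which loads surfactant lipid into lamellar bodies, was the 1 member lower in all 3 lines, and 0 were higher in all 3, against 1.48% of all genes lower and 0.824% higher. Of 36 members tested in 2 or 3 lines, 7 were higher in 1 line and lower in another, among them Abcb1a, Abcb4, Abcc1, Abcc2, Abcc5 and Abcf2, where 15.8% of all genes were. The differences between lines were tested jointly over 14195 genes. Between Hepa1-6 and Hep53.4, where 10.2% of all genes differed upward and 14.5% downward (24.7% in all), 2 members differed upward and 14 downward, and the largest were Abcb4 (-1.53 ± 0.26, adjusted p = 3.92e-05), Abca1 (-0.98 ± 0.16, adjusted p = 2.05e-05) and Abcc2 (-0.91 ± 0.07, adjusted p = 1.36e-11). Abcb6, Abcc4, Abcc5 and Abca5 were among those that followed, with differences of -0.77, -0.58, -0.57 and -0.51.

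Between Hepa1-6 and LLC, where 9.28% of all genes differed upward and 15.3% downward (24.6% in all), 2 members differed upward and 13 downward. Abcb4 (-2.17), Abcb1a (-1.39), Abcc4 (-0.72) and Abcb6 (-0.51) were lower in Hepa1-6 relative to LLC, and Abcd4 (0.68) and Abcb8 (0.38) were higher. Abcb8 was not called without Hepa1-6 sgNeg2 replicate 1 (0.28, adjusted p = 0.169 by edgeR) or LLC sgNeg2 replicate 1 (0.30, adjusted p = 0.134), and without that LLC library 8 members were called in all. Between Hep53.4 and LLC, where 13.4% of all genes differed upward and 15.8% downward (29.2% in all), 7 differed upward and 6 downward, among them Abcb1a (-1.49), Abcg2 (-0.66) and Abcd4 (0.51). Without Hep53.4 sgNeg2 replicate 1 that count fell to 8, and Abcg2 lost its call without 1 or another of 7 libraries (-0.83 to -0.50). The calls of Abca5 and Abcc3 against LLC rest on LLC libraries at or near 0 and are not read.

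In control cells the liver lines themselves had very different transporters. Hepa1-6 against Hep53.4 gave 26 members higher and 13 lower, where 38.2% of all genes were higher and 38.0% lower (76.2% in either direction). Abcc2 had 594 and 580.3 CPM in Hepa1-6 and 11.4 and 12.5 CPM in Hep53.4 sgNeg2 libraries, a log2 difference of 5.62 ± 0.06, adjusted p = 5.75e-38. Abca1 had 103 and 104 CPM in Hepa1-6 and 1.51 and 1.61 CPM in Hep53.4, a log2 difference of 6.04 ± 0.12, adjusted p = 1.66e-30. Both liver exporters were far higher in Hepa1-6. Abcg1 had 35.6 and 37.0 CPM in Hepa1-6 and no counts in Hep53.4, at least 1270-fold higher against a floor of 3 counts over the group, and likewise Abcc6 at least 93.2-fold. Abcc1, which exports glutathione conjugates, was lower in Hepa1-6 (79.7 and 71.9 CPM, against 325 and 317 CPM in Hep53.4; log2 difference -2.08 ± 0.05, adjusted p = 4.27e-26), as was Abcc5 (-1.24).

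LLC against the mean of the liver lines gave 12 members higher and 21 lower, where 41.0% of all genes were higher and 38.3% lower (79.3% in either direction). Abca1, Abca5, Abca6, Abca8b and Abcc2 had no counts in LLC sgNeg2 libraries, and the liver lines were at least 3900-fold higher (Hepa1-6) and 58.9-fold higher (Hep53.4) for Abca1, and at least 22200-fold and 451-fold higher for Abcc2. These bounds rest on 3 counts over the LLC group and cover counting error only. Abcc3 had 0.597 and 0.905 CPM in LLC, against 172 to 689 CPM in the liver lines, a log2 difference of -8.81 ± 0.10, adjusted p = 1.71e-33. Abcc4 (-2.52) and Abcb1a (-4.63) were lower too. Abcg1 had 76.5 and 81.3 CPM in LLC, against 35.6 and 37.0 CPM in Hepa1-6, and was at least 2760-fold above Hep53.4, which had no counts. Abcf2 (1.32) and Abca2 (1.10), a brain lipid transporter, were higher in LLC. The bile salt pump Abcb11 and the sterol pair Abcg5 and Abcg8 reached no more than 0.184 CPM in any mouse library.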

How the data were processed

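RNA of 36 libraries was prepared with the RNeasy Mini Kit and the VAHTS Universal V6 RNA-seq kit, per the labels. The deposited values are raw counts per gene symbol, 1 file per library. The builds hg38 and mm10 stand in the submitters' processing notes beside SAMtools 1.9, HISAT2 2.2.1, DESeq2 1.36.0 and Trim Galore, with no role given. The sources used here give no counting program, annotation or use of strand, so overlapping genes (ABCB9, ABCC10, ABCC11, ABCE1, ABCA8 and ABCA9 among members) cannot be separated by strand. The DMSO and EPZ-5676 files list only genes with at least 1 count in all 6 libraries.

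Counts were tested in R 4.3.3 with edgeR 4.0.16: filterByExpr (minimum count 10, minimum total 15), TMM scaling, robust quasi-likelihood fits and F tests, with Benjamini-Hochberg adjustment over all genes tested and calls at an adjusted p below 0.05. The standard error is the log2 change divided by the square root of F. The 12 HuH-7 guide libraries, the 6 drug libraries and each mouse line's 6 libraries were fitted apart. The 18 mouse libraries were fitted jointly for differences between lines, for baselines and for mouse CPM. CPM are comparable only within a jointly scaled set. A 2-fold change was recovered for 62 to 97% of changed genes in simulated data, where 0.515 to 6.44% of calls were false. The simulation gave every gene the same dispersion and changed only genes above a minimum mean count. It therefore does not give the recovery for members with few counts or for the real spread between libraries.

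The members and lists were chosen with earlier results of these data known. Statistics are given for at most 8 called members per comparison with a mean of at least 1 CPM, the largest changes first, and levels for the sterol, bile and drug exporters. Some values outside this rule are given as ranges or counts. 1 member is included in the counts and medians but is not reported here. Replicate numbers are shared between groups, but libraries of the same number had residual correlations of -0.0611 to 0.0625 and were not taken to pair. Counts differed between all replicates of a group beyond sampling noise. Alternatives were DESeq2 1.42.0, other scaling, no filter, guides apart, smaller fits, DMSO as the IFN control, a replicate block and each library left out.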

Additional observations from a re-analysis of the deposited data

Results flagged for a closer look

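Among 35 groups of 4 knockout libraries checked, 4 held a library apart from the others, where chance gives about 1 in 20 for exchangeable values. The libraries came from different guides, and the rule takes no account of counting error. That rate may therefore not apply, and the flags are not read as an excess. ABCG1 in HuH-7 knockout with IFN was 5.00 CPM in sg2 replicate 2, against 3.44 to 3.70 CPM in the other 3 libraries. Abca5 in Hepa1-6 knockout was 164.4 CPM in sg1 replicate 2, against 161.4 to 161.9 CPM. Abcb8 in Hepa1-6 knockout was 14.95 CPM in sg2 replicate 2, against 13.6 to 13.7 CPM, and Abcb1a in Hep53.4 knockout was 15.39 CPM in sg1 replicate 1, against 13.9 to 14.1 CPM.

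Other results stood out because the knockout change differed between mouse lines, by edgeR's test of the difference itself. In Hepa1-6 minus Hep53.4 the log2 differences were -1.53 for Abcb4, -0.98 for Abca1, -0.91 for Abcc2, -0.77 for Abcb6, -0.58 for Abcc4, -0.57 for Abcc5 and -0.51 for Abca5. In Hepa1-6 minus LLC they were -2.17 for Abcb4, -1.39 for Abcb1a, -0.72 for Abcc4, 0.68 for Abcd4, -0.51 for Abcb6 and 0.38 for Abcb8, which was not called without Hepa1-6 sgNeg2 replicate 1 or LLC sgNeg2 replicate 1. In Hep53.4 minus LLC they were -1.49 for Abcb1a, -0.66 for Abcg2, 0.51 for Abcd4, 0.34 for Abcc5, -0.32 for Abce1 and -0.32 for Abcf2.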

How the results depend on the processing

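Counts of called members under other scaling, no filter and DESeq2 stayed within 1.5 times the reported ones. With guide sg2 alone, 13 members were called in HuH-7 knockout without IFN and 14 (4 higher, 10 lower) with IFN. The share of all genes called in those sg2 fits is not given here. These counts are therefore not read as a result about the family. The interaction called 6 with sg2 alone and 1 with sg1 alone, against the shares given above. Fitted on the IFN libraries alone, knockout with IFN called 2. With DMSO as the control of IFN, ABCB5 turned to 0.13. The cause of these changes was not tested. Leaving out each library in turn gave 3 to 8 calls in knockout without IFN, 2 to 8 with IFN (2 without IFN sgNeg2 replicate 1, and 3 without sg1 replicate 2), 0 in the interaction, 12 to 15 with EPZ-5676, 14 to 20 in Hepa1-6, 13 to 16 in Hep53.4, 13 to 15 in LLC, 14 to 17 for Hepa1-6 minus Hep53.4, 8 to 16 for Hepa1-6 minus LLC (8 without LLC sgNeg2 replicate 1) and 8 to 15 for Hep53.4 minus LLC (8 without Hep53.4 sgNeg2 replicate 1). ABCG1, ABCA6 and ABCA10 have few counts in control HuH-7 cells, which limits the precision of their folds.

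With the replicate number as a block, calls numbered 7 in HuH-7 knockout without IFN, 6 with IFN, 21 and 28 for IFN in control and knockout cells, 12 with EPZ-5676, 0 in the interaction, 20, 13 and 15 in Hepa1-6, Hep53.4 and LLC, 16, 16 and 13 for the differences between lines, and 39 and 33 for the baselines. In DMSO and EPZ-5676 each replicate correlated best with its own number, at 0.0172 to 0.0361.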
